A study of Homo sapiens with 18 samples.

Results

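The genes OPCML, B3GALT1, ADRA1D, PLCXD3 and KRTAP4-12 had some of the largest rises with an MDM2 inhibitor in irradiated IMR90 cells, and they were chosen by those fold changes and then taken by name from the table of read counts. They are 5 of the 60668 genes listed, and all 5 were among the 18151 genes with enough reads to be tested. IMR90 cells are primary human lung fibroblasts of wild type genotype. The 18 polyA RNA libraries form 6 groups of 3, in which proliferating cells (Prolif) or cells made senescent by ionizing radiation (IR) received the vehicle DMSO, RG7388 or HDM201. The groups are named Prolif_DMSO, Prolif_RG7388, Prolif_HDM201, IR_DMSO, IR_RG7388 and IR_HDM201. Irradiated cells were given the compounds from day 4 and collected on day 11 after irradiation. No such days are given for the proliferating cells. RG7388 and HDM201 were used at different doses, so their values are set side by side and not compared. All cells come from a single cell strain, and the labels do not say whether replicates came from separate irradiations, so that p-values measure the spread between these libraries, which may be technical.

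MDM2 is the ubiquitin ligase that binds p53 and drives its breakdown, and RG7388 and HDM201 block that binding so that p53 is held at a higher level. p53 is a transcription factor that turns on cell cycle arrest and DNA repair genes after DNA damage. Senescent cells are alive but no longer divide, and their p53 pathway is already active. The 5 genes belong to unrelated families. OPCML is a cell adhesion protein with immunoglobulin domains that is anchored in the membrane by a lipid. B3GALT1 is a Golgi enzyme that adds galactose to the sugar chains of glycoproteins and glycolipids. ADRA1D is an alpha-1 adrenergic receptor, which signals through Gq and phospholipase C. PLCXD3 is a protein with a phospholipase C X domain. KRTAP4-12 is a keratin-associated protein, a class known from the hair shaft.

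The libraries held 21609198 to 66647700 counts each, and the 5 genes had 2 to 246 counts per library, so all of them are genes of low abundance here. Levels are CPM, the counts scaled to library size by TMM, and changes are log2 fold changes ± SE from edgeR's quasi-likelihood fit. Prolif_HDM201 replicate 3 lay farthest from its group mates (root mean square log2 distance 1.24), and IR_DMSO replicate 1 lay farther from its mates (0.925) than replicates 2 and 3 (0.764 and 0.772). Distances above 0.925 were also seen in the IR_HDM201 libraries (1.16, 1.12 and 1.05). They were seen as well in replicates 1 and 2 of Prolif_DMSO (1.08 and 0.942) and of Prolif_HDM201 (1.06 and 1.03). Markers of fibroblasts were detected in every group (8 of 8). Their summed levels were 39350 to 57640 CPM in the proliferating groups and lower, at 17170 to 26260 CPM, in the irradiated groups. CDKN1A, the cell cycle inhibitor that p53 induces, was 231 ± 13.2 CPM (SD, n = 3) in Prolif_DMSO, 748 ± 43.0 CPM in Prolif_RG7388 and 628 ± 104 CPM in Prolif_HDM201. It stood at 1818 ± 95.1 CPM in IR_DMSO, 2110 ± 47.4 CPM in IR_RG7388 and 1763 ± 96.0 CPM in IR_HDM201. CDKN1A rose with each compound in proliferating cells, by 1.69 ± 0.11 with RG7388 (edgeR adjusted p = 3.52e-09) and by 1.44 ± 0.11 with HDM201 (edgeR adjusted p = 8.16e-08). In irradiated cells its differences of 0.22 ± 0.11 and -0.04 ± 0.11 did not pass the threshold (edgeR adjusted p = 0.158 and 0.82). MDM2, itself a p53 target, rose in proliferating cells by 0.76 ± 0.18 with RG7388 (edgeR adjusted p = 0.036) and was 0.49 ± 0.18 with HDM201 (edgeR adjusted p = 0.302). In irradiated cells its differences were -0.06 ± 0.17 and -0.07 ± 0.17 (edgeR adjusted p = 0.854 and 0.835).

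In the irradiated cells the 5 genes were higher with either compound in all 3 libraries than in any IR_DMSO library. These values chose the genes and are given as a description, without a test. Over all genes tested, 21.7% had every IR_RG7388 library above every IR_DMSO library, and 17.1% had every IR_HDM201 library above them. The share of genes called higher at an adjusted p under 0.05 was 10.9% for RG7388 and 9.96% for HDM201. The comparisons share the IR_DMSO libraries. The genes reached these levels from different starting points. OPCML, B3GALT1 and ADRA1D were lower in IR_DMSO than in Prolif_DMSO in every library, whereas PLCXD3 and KRTAP4-12 had overlapping levels in IR_DMSO and Prolif_DMSO. Over all genes tested, 29.4% were lower in every IR_DMSO library than in every Prolif_DMSO library, and 25.3% were called lower.

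**Figure D1:**
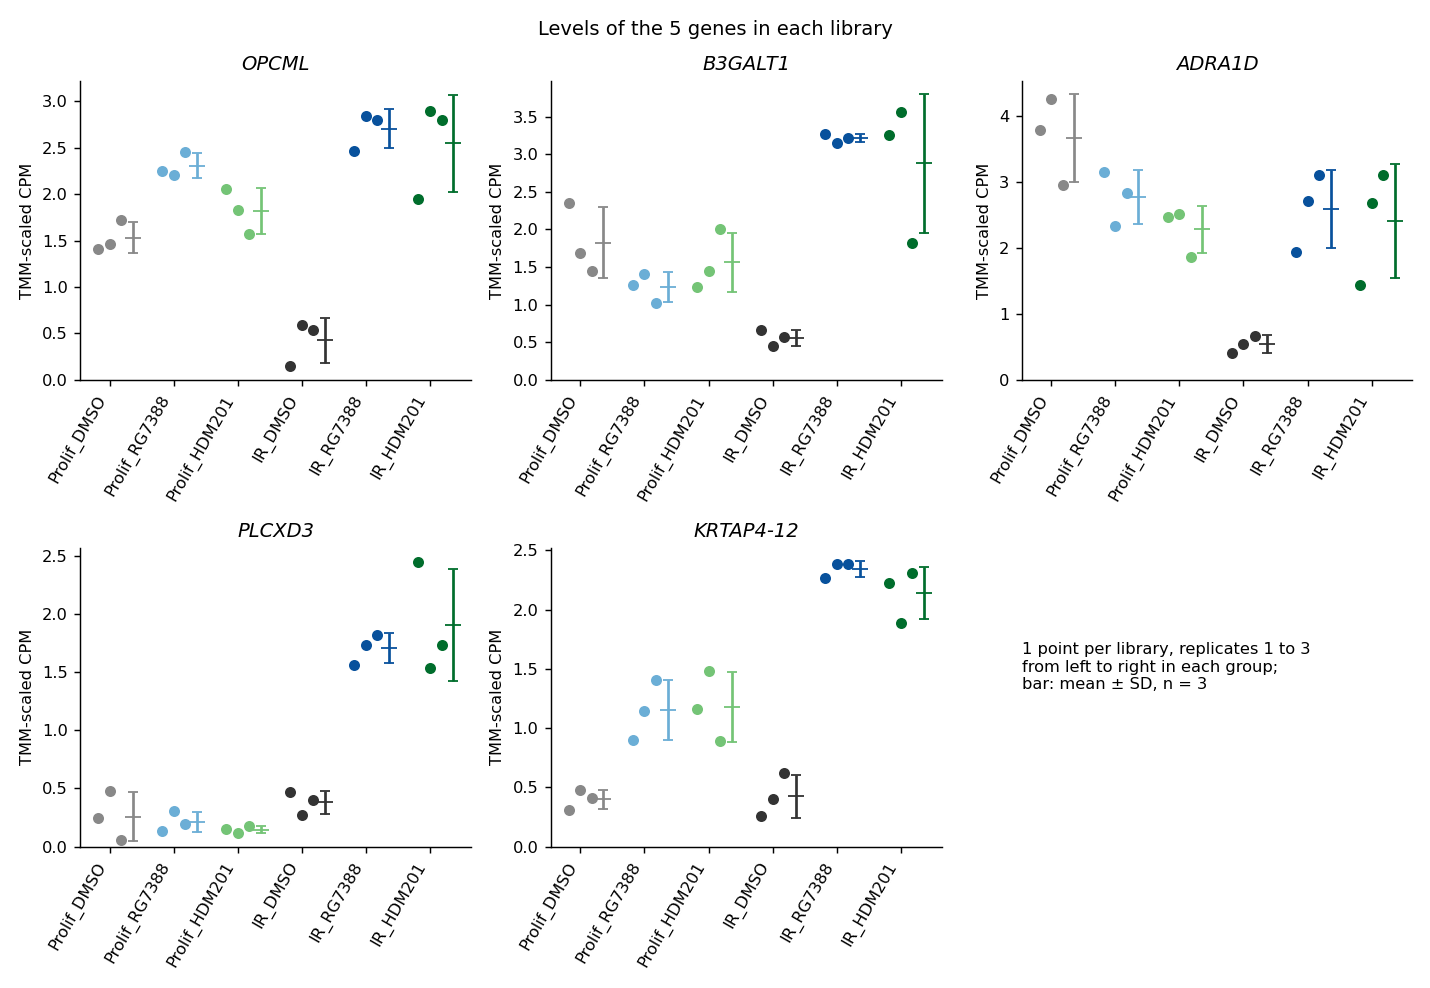
Levels of the 5 genes in TMM-scaled CPM (vertical axes, each from 0) in the 6 groups, with 1 point per library and the mean ± SD of 3 libraries beside it. All 6 libraries of irradiated cells with a compound lie above the 3 IR_DMSO libraries in each panel, and OPCML, B3GALT1 and ADRA1D have their lowest values in IR_DMSO.

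To place the 5 genes among the rises, genes were ranked that were called higher, had a mean of at least 1 CPM in either group and had no overlap between libraries. The 5 genes were chosen by these same fold changes, so their ranks describe the choice and are not a test. Among 1948 such genes with RG7388, OPCML ranked 1, B3GALT1 3, KRTAP4-12 4, ADRA1D 6 and PLCXD3 7. Just outside stood KCNQ5, a potassium channel, at a log2 fold change of 2.13, close to the 2.14 of PLCXD3. It was followed by OXTR, the oxytocin receptor, at 2.02 and CLEC3B, the plasminogen-binding lectin tetranectin, at 1.93. Among 1710 such genes with HDM201, OPCML ranked 2, B3GALT1 4, KRTAP4-12 5, PLCXD3 6 and ADRA1D 8. The ADRA1D value of 2.11 lay between KCNQ5 at 2.14 and VAV3, a guanine nucleotide exchange factor, at 2.10, with OXTR at 2.10 and PADI1 at 1.92 after them. The T-cell receptor beta segments TRBV12-4 and TRBV7-9 also ranked in this range (2 and 5 with RG7388, 3 and 1 with HDM201) but are not among the 5 genes, and they are named here after their values were seen. Over all 18151 genes tested, without these limits, OPCML, B3GALT1, KRTAP4-12, ADRA1D and PLCXD3 ranked 6, 9, 12, 17 and 22 with RG7388 and 8, 13, 14, 26 and 15 with HDM201.

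OPCML was lowest in IR_DMSO. The IR_DMSO libraries held 0.149, 0.596 and 0.539 CPM, from 7, 24 and 20 counts. IR_RG7388 libraries held 2.47, 2.85 and 2.80 CPM, and IR_HDM201 libraries held 1.95, 2.90 and 2.80 CPM. Both sets lay above every IR_DMSO library, with log2 fold changes of 2.68 ± 0.31 and 2.57 ± 0.31. In Prolif_DMSO the values were 1.41, 1.47 and 1.72 CPM, so that irradiation with the vehicle went with a level 3.64-fold lower. The IR_RG7388 mean was 177% and the IR_HDM201 mean 166% of the Prolif_DMSO mean. Ordered by mean, IR_RG7388, IR_HDM201 and Prolif_RG7388 were followed by Prolif_HDM201, Prolif_DMSO and IR_DMSO. Libraries of neighbouring groups in this order overlapped except between Prolif_RG7388 and Prolif_HDM201 and between Prolif_DMSO and IR_DMSO. Without IR_DMSO replicate 1 and Prolif_HDM201 replicate 3 the rises were 2.24 and 2.12.

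B3GALT1 followed the same outline. Its IR_DMSO libraries held 0.659, 0.447 and 0.566 CPM, from 31, 18 and 21 counts. The IR_RG7388 libraries were close to each other at 3.26, 3.16 and 3.21 CPM, and those of IR_HDM201 held 3.25, 3.56 and 1.82 CPM. No library with a compound overlapped IR_DMSO, with log2 fold changes of 2.51 ± 0.28 and 2.37 ± 0.28. The Prolif_DMSO libraries held 2.35, 1.68 and 1.45 CPM, and the IR_DMSO mean was 3.30-fold lower than theirs. The IR_RG7388 mean reached 176% and the IR_HDM201 mean 158% of the Prolif_DMSO mean. IR_HDM201 replicate 3, at 1.82 CPM, was the only irradiated library with a compound that lay within the range of Prolif_DMSO. In the order IR_RG7388, IR_HDM201, Prolif_DMSO, Prolif_HDM201, Prolif_RG7388, IR_DMSO, the only neighbours without overlap were Prolif_RG7388 and IR_DMSO.

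ADRA1D differed from the former pair in that its highest mean was in Prolif_DMSO, where the libraries held 3.80, 4.27 and 2.95 CPM. The IR_DMSO libraries held 0.404, 0.547 and 0.673 CPM, a level 6.80-fold lower and the lowest of the 6 groups. IR_RG7388 libraries held 1.95, 2.72 and 3.11 CPM, and IR_HDM201 libraries held 1.44, 2.68 and 3.11 CPM. Compared with IR_DMSO the log2 fold changes were 2.26 ± 0.30 and 2.11 ± 0.30. The IR_RG7388 mean was 70.6% and the IR_HDM201 mean 65.7% of the Prolif_DMSO mean, so the rise ended below the level of proliferating cells on average, with libraries that overlapped. Every pair of neighbours in the order of means overlapped except Prolif_HDM201 and IR_DMSO.

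PLCXD3 was near the limit of counting outside the irradiated cells with a compound. The Prolif_DMSO libraries had 16, 11 and 2 counts, or 0.247, 0.474 and 0.0547 CPM. IR_DMSO libraries held 0.468, 0.273 and 0.404 CPM and overlapped with them. The IR_RG7388 libraries held 1.56, 1.73 and 1.81 CPM, and the IR_HDM201 libraries held 2.45, 1.54 and 1.73 CPM. These were above all 12 other libraries, and the log2 fold changes against IR_DMSO were 2.14 ± 0.39 and 2.33 ± 0.40. As a share of the Prolif_DMSO mean, IR_RG7388 was at 659% and IR_HDM201 at 737%. The lower 4 groups in the order of means (IR_DMSO, Prolif_DMSO, Prolif_RG7388, Prolif_HDM201) overlapped with their neighbours, so that no order among them was resolved at this depth.

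KRTAP4-12 was low under DMSO in both states and higher with the compounds in both. The Prolif_DMSO libraries held 0.309, 0.474 and 0.410 CPM and the IR_DMSO libraries 0.255, 0.398 and 0.620 CPM, and the groups overlapped. The IR_RG7388 libraries held 2.27, 2.38 and 2.39 CPM, and the IR_HDM201 libraries held 2.22, 1.89 and 2.31 CPM. The log2 fold changes against IR_DMSO were 2.48 ± 0.30 and 2.35 ± 0.30. The irradiated libraries with a compound lay above all proliferating libraries, those with a compound included.

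Only the proliferating libraries were not used to choose the genes. They hold cells given the same compounds without irradiation, for a length of time that is not given. KRTAP4-12 rose and the other 4 genes did not pass the test. It held 0.902, 1.15 and 1.40 CPM in Prolif_RG7388 and 1.16, 1.49 and 0.893 CPM in Prolif_HDM201, all above the Prolif_DMSO libraries. The rise was 3.02-fold with RG7388 (log2 fold change 1.60 ± 0.33, 95% interval 0.92 to 2.27, edgeR adjusted p = 0.0112). With HDM201 it was 3.02-fold (log2 fold change 1.60 ± 0.32, 95% interval 0.93 to 2.26, edgeR adjusted p = 0.0163). The comparisons share the Prolif_DMSO libraries and are not independent. Thus 1 of 5 genes was called in each comparison, where 1.54% of all genes were called with RG7388 (1.20% higher) and 0.700% with HDM201 (0.545% higher). Every library was higher in 15.2% of all genes with RG7388 and in 6.34% with HDM201. The call with RG7388 was lost without Prolif_DMSO replicate 1 (adjusted p = 0.128) and without Prolif_RG7388 replicate 3 (adjusted p = 0.0936). With HDM201 it was lost without Prolif_DMSO replicate 1 (adjusted p = 0.177) or 3 (0.0716), without Prolif_HDM201 replicate 1 (0.0541) or 2 (0.115), and when the 2 groups were fitted alone (0.232).

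OPCML, B3GALT1 and ADRA1D each had 1 comparison in proliferating cells without overlap between libraries, and none of these passed the test. OPCML held 2.25, 2.21 and 2.46 CPM in Prolif_RG7388, above all Prolif_DMSO libraries (log2 fold change 0.60 ± 0.28, edgeR adjusted p = 0.366). In Prolif_HDM201 it held 2.06, 1.83 and 1.57 CPM, with overlap (0.24 ± 0.28, edgeR adjusted p = 0.836). On the deposited FPKM values both OPCML differences changed sign, to -0.07 and -0.46 on the log2(FPKM + 1) scale. B3GALT1 held 1.26, 1.41 and 1.02 CPM in Prolif_RG7388, below all Prolif_DMSO libraries (-0.60 ± 0.28, edgeR adjusted p = 0.36), where 10.6% of all genes were lower in every library. Its Prolif_HDM201 libraries held 1.23, 1.45 and 2.00 CPM and overlapped with Prolif_DMSO (-0.22 ± 0.26, edgeR adjusted p = 0.837). The receptor gene ADRA1D held 2.47, 2.51 and 1.87 CPM in Prolif_HDM201, below all Prolif_DMSO libraries (-0.69 ± 0.26, edgeR adjusted p = 0.314), where 6.66% of all genes were lower in every library. With RG7388 it held 3.16, 2.34 and 2.84 CPM, which overlapped (-0.40 ± 0.26, edgeR adjusted p = 0.562).

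PLCXD3 held 0.135, 0.309 and 0.191 CPM in Prolif_RG7388 and 0.150, 0.114 and 0.174 CPM in Prolif_HDM201. Its 95% intervals, -1.31 to 0.94 with RG7388 and -1.80 to 0.47 with HDM201, are the widest of the 5 genes. A difference was not detectable at this depth. PLCXD3 had no value when the compared groups were fitted alone. Its place among the tested genes thus rests on counts in the irradiated libraries, which also chose it. For the other 3 genes without a call the interval reached up to 1.17 for OPCML with RG7388 and down to -1.23 for ADRA1D with HDM201. These intervals carry no adjustment over genes, and some of them lie wholly above or below no change. They are 0.02 to 1.17 for OPCML and -1.17 to -0.03 for B3GALT1 with RG7388, and -1.23 to -0.15 for ADRA1D with HDM201. None of these differences passed the test after adjustment. The difference between the states was not tested, since the irradiated libraries chose the genes.

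**Figure D2:**
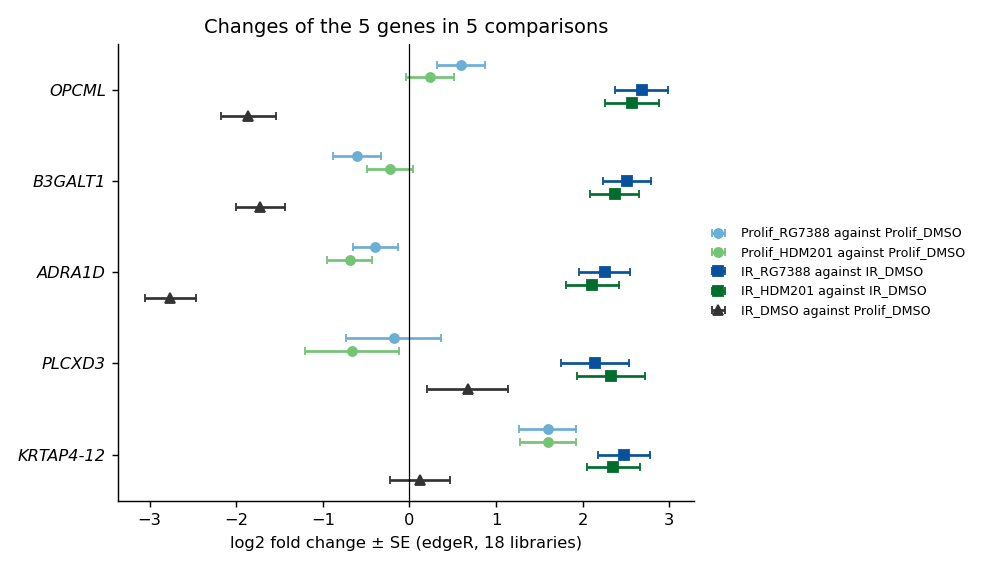
Log2 fold changes ± SE (horizontal axis) of the 5 genes in 5 comparisons from the fit over 18 libraries. The squares for irradiated cells with a compound lie between 2.11 and 2.68 for all 5 genes, the circles for proliferating cells lie between -0.69 and 0.60 except for KRTAP4-12 at 1.60, and the triangles for IR_DMSO against Prolif_DMSO separate OPCML, B3GALT1 and ADRA1D (-1.86, -1.72 and -2.77) from PLCXD3 and KRTAP4-12 (0.67 and 0.12).

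The genes lie on 5 chromosomes and differ in size (hg38, GENCODE 44). OPCML spans chr11:132414977-133532501 on the minus strand, or 1118 kb, longer than 99.74% of the genes tested. B3GALT1 spans chr2:167293001-167874045 on the plus strand (581 kb, longer than 98.83%), and PLCXD3 spans chr5:41306952-41510601 on the minus strand (203.7 kb, longer than 92.55%). ADRA1D spans chr20:4220630-4249287 on the minus strand (28.66 kb), close to the median span of 26.24 kb. KRTAP4-12 spans chr17:41123091-41124182 on the minus strand and is a single exon of 1.092 kb, with 5.757% of the tested genes shorter.

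The stretches before the start sites are shown because the genes rose together in irradiated cells and because only KRTAP4-12 was called in proliferating cells. The symbols of 4 of the 5 genes matched RefSeq promoter windows (GRCh38.p14), and ADRA1D did not. Each line gives the 250 bases before the start on the gene's own strand, with capitals for the motifs searched on both strands. These were TATAAA (in 10.75% of 34943 windows of the same length), CCAAT (32.04%), GGGCGG (42.55%), TGANTCA (6.591%) and the p53 half-site (5.581%). The windows are chr11:133532502-133532751 and chr11:132943837-132944086 for the starts of OPCML, chr2:167292751-167293000 for B3GALT1, chr5:41510602-41510851 for PLCXD3 and chr17:41124183-41124432 for KRTAP4-12.
OPCML start 1: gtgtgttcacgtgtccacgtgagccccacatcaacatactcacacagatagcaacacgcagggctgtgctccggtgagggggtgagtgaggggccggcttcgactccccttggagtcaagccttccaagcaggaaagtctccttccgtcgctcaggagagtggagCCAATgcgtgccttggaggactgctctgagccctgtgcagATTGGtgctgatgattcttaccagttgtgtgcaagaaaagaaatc
OPCML start 2: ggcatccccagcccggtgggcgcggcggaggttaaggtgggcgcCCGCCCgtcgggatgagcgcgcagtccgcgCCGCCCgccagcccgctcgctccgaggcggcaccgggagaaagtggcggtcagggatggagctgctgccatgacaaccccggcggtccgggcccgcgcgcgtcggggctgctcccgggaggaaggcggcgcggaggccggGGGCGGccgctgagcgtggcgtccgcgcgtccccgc
B3GALT1: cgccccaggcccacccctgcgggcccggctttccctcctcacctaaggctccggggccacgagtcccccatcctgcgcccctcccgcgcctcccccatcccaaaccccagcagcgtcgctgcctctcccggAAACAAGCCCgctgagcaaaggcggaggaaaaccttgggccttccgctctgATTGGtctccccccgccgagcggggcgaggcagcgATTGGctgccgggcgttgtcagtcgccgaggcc
PLCXD3: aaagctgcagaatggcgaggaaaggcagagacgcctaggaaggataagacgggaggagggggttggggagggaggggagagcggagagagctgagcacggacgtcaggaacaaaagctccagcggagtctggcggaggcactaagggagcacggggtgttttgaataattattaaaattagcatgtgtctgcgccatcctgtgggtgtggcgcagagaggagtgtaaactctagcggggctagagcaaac
KRTAP4-12: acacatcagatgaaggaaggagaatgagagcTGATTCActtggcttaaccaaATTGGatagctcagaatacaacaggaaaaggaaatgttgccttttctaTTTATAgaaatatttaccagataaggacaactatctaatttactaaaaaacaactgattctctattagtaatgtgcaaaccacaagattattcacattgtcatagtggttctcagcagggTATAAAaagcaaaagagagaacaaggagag

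KRTAP4-12 has TATAAA 30 to 25 bases before its start, a TGANTCA match at 219 to 213, and no CpG, with a GC content of 34.4%. The B3GALT1 window holds 1 p53 half-site, 119 to 110 bases before the start, beside 2 matches to CCAAT read from the other strand. OPCML start 1 has 2 matches to CCAAT and start 2 has 3 to GGGCGG, and the PLCXD3 window has none of the 5 motifs. GC content was 56% for OPCML start 1 and PLCXD3, 71.6% for B3GALT1 and 79.6% for OPCML start 2, against a median of 58% over all windows. KRTAP4-12 also has CCAAT and TATAAA once each read from the other strand. CCAAT was thus found for OPCML, B3GALT1 and KRTAP4-12 and none of the motifs for PLCXD3, and a match in these letters is a description and not a binding site.

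Some reads of these genes cannot be placed with certainty. KRTAP4-12 shares 24.87% of its 50-base words with transcripts of other genes, chiefly KRTAP4-5, KRTAP4-11, KRTAP4-6 and KRTAP4-4. KRTAP4-12 had 856 counts over all libraries, against 54 for KRTAP4-11, 7 for KRTAP4-5, 4 for KRTAP4-4 and 0 for KRTAP4-6. KRTAP4-8 and KRTAP4-9, which share fewer words with it (49 and 17), had 100 and 82 counts. For B3GALT1 the share was 10.69%, for OPCML 2.374%, mostly with its neighbour NTM, for PLCXD3 0.07836%, and for ADRA1D 0. The lncRNA AC073050.1 lies on the same strand within B3GALT1 and shares 265 exonic bases with it, so reads there cannot be told apart. AC073050.1 had 16, 4 and 27 counts in the Prolif_DMSO, Prolif_RG7388 and Prolif_HDM201 groups and 4, 35 and 40 in IR_DMSO, IR_RG7388 and IR_HDM201.

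The tested genes next to the 5 genes did not all move with them. Of the 10 flanking genes, 4 were called higher and 1 lower with RG7388 in irradiated cells, and 5 were called higher and 1 lower with HDM201. The 4 include KRTAP4-9, which passed the filter on low counts only through the irradiated libraries with a compound. Over all genes 10.9% and 9.96% were called higher, and 22.8% and 21.3% were called in either direction. After irradiation under DMSO 1 of the 10 was called higher and 4 lower, where 51.6% of all genes were called and 25.3% were called lower. In proliferating cells 1 was called lower with HDM201, where 0.700% of all genes were called. NTM, a relative of OPCML 78.16 kb away, was 89.9 CPM in Prolif_DMSO, 37.5 CPM in IR_DMSO, 67.4 CPM in IR_RG7388 and 62.2 CPM in IR_HDM201. NTM fell by 1.26 after irradiation (edgeR adjusted p = 2.18e-09) and rose by 0.85 and 0.73 with the compounds (edgeR adjusted p = 4.33e-06 and 3.71e-05). Both neighbours of B3GALT1 rose as well. XIRP2, which codes for an actin-binding protein of striated muscle, lies 33.25 kb away and rose by 1.35 with RG7388 and 1.25 with HDM201 (edgeR adjusted p = 0.000258 and 0.000779). In proliferating cells XIRP2 went the other way, at -1.06 with RG7388 (edgeR adjusted p = 0.0619) and -1.24 with HDM201 (edgeR adjusted p = 0.0352). STK39, a kinase of ion transport on the other side, rose by 0.61 and 0.78 (edgeR adjusted p = 3.69e-05 and 1.62e-06). SMOX, the spermine oxidase gene beside ADRA1D, moved the other way and fell by 0.92 and 1.03 (edgeR adjusted p = 1.14e-05 and 3.17e-06).

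Of 95 relatives in gene family and pathway lists, 54 were tested. The lists were chosen with earlier results of these data known, so the shares below are a description and not a test. With RG7388 in irradiated cells 11 were called higher and 7 lower, or 33.3%, against 22.8% of all genes, and with HDM201 10 were called higher and 6 lower, or 29.6% against 21.3%. Their median log2 fold change was 0.18 with RG7388, against -0.03 over all genes tested. In proliferating cells 4 were called higher with RG7388 (7.41% against 1.54% of all genes) and 2 with HDM201 (3.7% against 0.700%), and none lower. Of these, 2 with RG7388 and the 2 with HDM201 were in the keratin-associated list, which had 4 tested genes. The count of 2 with HDM201 was 6 without Prolif_HDM201 replicate 3 and 10 when IR_DMSO replicate 1 was left out as well, and the count of 4 with RG7388 was 2 without Prolif_DMSO replicate 1 or 2 or Prolif_RG7388 replicate 3. In IR_DMSO against Prolif_DMSO 15 were called higher and 12 lower, or 50% against 51.6% of all genes.

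Among adhesion relatives of OPCML, 1 of 9 tested was higher and 1 lower with RG7388, and 1 was higher with HDM201. NTM rose, as given above, and LSAMP, of the same IgLON family, fell by 0.52 with RG7388 (edgeR adjusted p = 0.00507) and was -0.36 with HDM201 (edgeR adjusted p = 0.0513). Of 14 glycosyltransferases related to B3GALT1, 1 was called higher and 2 lower with RG7388, and 3 higher and 2 lower with HDM201. B3GNT5, which extends lactosylceramide, fell from 3.40 ± 0.97 to 1.22 ± 0.18 CPM with RG7388 (log2 fold change -1.48 ± 0.34, edgeR adjusted p = 0.00327). B3GALT4, a galactosyltransferase of ganglioside synthesis, fell by 0.80 (edgeR adjusted p = 0.0116), while B3GALT6, of the proteoglycan linker, rose by 0.42 (edgeR adjusted p = 0.0481). The calls in the family of B3GALT1 thus went in both directions.

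In the adrenergic and Gq list, 5 of 16 tested were called higher and 3 lower with RG7388, and 4 higher and 3 lower with HDM201. RGS4, which speeds the shutdown of Gq signals, was, like ADRA1D, lowest in IR_DMSO, but its highest mean was in Prolif_RG7388 and not in Prolif_DMSO. It was 84.0 ± 2.20 CPM in Prolif_DMSO, 110.3 ± 7.17 in Prolif_RG7388, 94.5 ± 3.04 in Prolif_HDM201, 23.4 ± 0.77 in IR_DMSO, 64.1 ± 2.83 in IR_RG7388 and 65.8 ± 3.70 in IR_HDM201 (log2 fold changes of 1.45 and 1.49 with the compounds, edgeR adjusted p = 3.95e-11 and 3.04e-11). RGS2, another regulator of Gq, went the other way, from 24.3 ± 2.85 CPM in IR_DMSO to 4.42 ± 0.16 with RG7388 and 5.75 ± 0.79 with HDM201 (log2 fold changes of -2.46 and -2.07, edgeR adjusted p = 1.64e-10 and 2.9e-09). ITPR1, the calcium channel of the endoplasmic reticulum that phospholipase C activity opens, fell by 1.33 and 1.47 (edgeR adjusted p = 2.85e-05 and 1.14e-05). PRKCA, a protein kinase C, rose by 0.73 and 0.56 (edgeR adjusted p = 1.68e-05 and 0.000448). In proliferating cells RGS4 rose by 0.39 with RG7388 (edgeR adjusted p = 0.0208) and was 0.17 with HDM201 (edgeR adjusted p = 0.532).

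Of 11 phospholipase C relatives of PLCXD3, 2 were called higher and 1 lower with RG7388, and 1 higher and 1 lower with HDM201. PLCD3 rose by 0.57 and 0.43 (edgeR adjusted p = 0.000397 and 0.00612), and PLCL2, which lacks catalytic activity, fell by 1.06 and 0.72 (edgeR adjusted p = 0.000322 and 0.0119). PLCH2 rose by 0.89 with RG7388 (edgeR adjusted p = 0.0278) and was 0.25 with HDM201 (edgeR adjusted p = 0.602).

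Of 32 keratin-associated protein genes of the KRTAP4-12 cluster only 4 were tested, and 2 of these followed the compounds in proliferating cells too. KRTAP2-3 was 3.26 ± 0.82 CPM in Prolif_DMSO, 9.13 ± 0.79 in Prolif_RG7388 and 8.21 ± 0.82 in Prolif_HDM201 (log2 fold changes of 1.53 and 1.37, edgeR adjusted p = 4.41e-05 and 0.000251). It rose further between IR_DMSO, at 11.1 ± 1.54 CPM, and IR_RG7388, at 37.8 ± 2.70 CPM, or IR_HDM201, at 36.8 ± 9.78 CPM (log2 fold changes of 1.77 and 1.73, edgeR adjusted p = 4.45e-08 and 8.8e-08). KRTAP2-3 was thus called higher with each compound in each state. KRTAP1-5 rose in proliferating cells by 1.48 and 1.07 (edgeR adjusted p = 4.42e-06 and 0.000585). In irradiated cells, where it was already at 45.4 ± 9.46 CPM under DMSO, its differences of 0.17 and 0.24 did not pass the test (edgeR adjusted p = 0.41 and 0.252). The remaining pair had few reads. KRTAP4-9 had 3 counts over the IR_DMSO libraries, 38 over IR_RG7388 and 27 over IR_HDM201 (edgeR adjusted p = 0.0408 and 0.0704), and KRTAP4-8 had 26, 27 and 22 (edgeR adjusted p = 0.928 and 0.871). In Prolif_DMSO, Prolif_RG7388 and Prolif_HDM201 KRTAP4-9 had 4, 6 and 4 counts. It thus passed the filter only through the irradiated libraries with a compound, so its p-values are not read as a test.

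**Figure D3:**
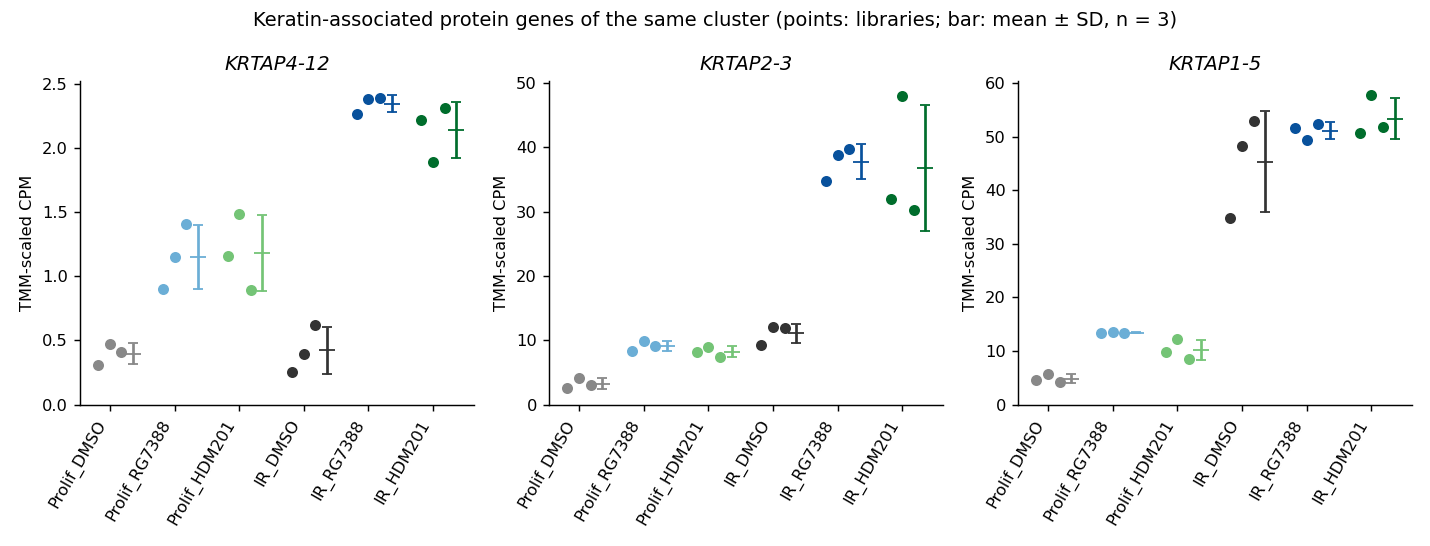
TMM-scaled CPM (vertical axes, each from 0) of KRTAP4-12, KRTAP2-3 and KRTAP1-5 in the 6 groups, with points for libraries and bars for the mean ± SD of 3. KRTAP4-12 and KRTAP2-3 are higher with each compound in both states, while KRTAP1-5 has IR_DMSO libraries that reach the range of those with a compound.

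The genes whose pattern over the 6 group means was most like each of the 5 genes were found by the root mean square difference of centred log2 CPM, which is a description over 6 points that includes the values behind the choice. ADRA1D had the closest match, NRXN3, a synaptic adhesion protein, with a difference of 0.135 and means of 26.9 CPM in Prolif_DMSO, 5.82 in IR_DMSO and 20.7 in IR_RG7388. KCNQ5 (0.185) and AC016397.2 (0.192) came next. For B3GALT1 they were SLC14A1, a urea transporter (0.248), PADI1 (0.324) and AC008522.1 (0.372). OPCML was nearest to CORIN, a membrane serine protease (0.349), EEF1G (0.379) and PTPRB (0.392). EEF1G had few reads here, with group means of 0.745 to 1.82 CPM. For PLCXD3 they were NPAS1 (0.279), the water channel AQP1 (0.306) and GIPC2 (0.31). KRTAP4-12 was nearest to TNFRSF10D, a decoy receptor for TRAIL (0.311), OXTR (0.381) and GPER1 (0.382). Among the 5 genes themselves, OPCML lay closest to ADRA1D (0.446) and B3GALT1 (0.451), and ADRA1D and PLCXD3 lay farthest apart (1.6).

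Smooth muscle, epithelial, and keratinocyte and hair marker sums were higher with each compound than in any IR_DMSO library. Those of other cell types differed in direction. The summed level of 6 smooth muscle genes was 615 to 959 CPM in IR_DMSO, 1513 to 1683 in IR_RG7388 and 1329 to 1676 in IR_HDM201. In Prolif_DMSO it was 1930 to 2137 CPM, and none of the 6 was at 0 in a group. ACTG2 and CNN1 made up most of this sum. In irradiated cells ACTG2, CNN1 and MYH11 were called higher with each compound, LMOD1 with RG7388 alone, and DES and SYNPO2 with neither. SYNPO2 was higher in IR_DMSO (38.2 CPM) than in Prolif_DMSO (7.86 CPM). For 6 epithelial genes it was 115.9 to 124.9 CPM in IR_DMSO, 247 to 285 in IR_RG7388, 194 to 272 in IR_HDM201 and 249 to 268 in Prolif_DMSO, and KRT18 made up most of it, while EPCAM stayed under 1 CPM in every group mean. Keratinocyte and hair genes summed to 26.7 to 29.6 CPM in IR_DMSO, 32.5 to 47.7 in IR_RG7388 and 36.7 to 56.0 in IR_HDM201, with 1 of 9 at 0 in each. KRT10 made up most of this sum. Neuronal genes summed to 51.9 to 70.8 CPM in IR_DMSO, 71.0 to 72.7 in IR_RG7388 and 63.7 to 67.1 in IR_HDM201. Endothelial genes summed to 117.2 to 137.9 CPM in IR_DMSO, 122.2 to 127.8 in IR_RG7388 and 112.6 to 117.9 in IR_HDM201, without a rise. Leukocyte genes were lower with the compounds, at 1.62 to 1.99 CPM in IR_DMSO, 1.02 to 1.17 in IR_RG7388 and 0.923 to 1.24 in IR_HDM201. Their part in the changes of the 5 genes was not tested. In these bulk samples, fewer cells of a type and less RNA per cell cannot be told apart.

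The deposited FPKM values gave the same separation of irradiated groups for all 5 genes. They come from the libraries that chose the genes, so this is a description. For OPCML the FPKM values did not follow the counts closely. FPKM per CPM of OPCML ran from 0.236 in IR_DMSO replicate 2 to 1.79 in Prolif_DMSO replicate 1, a 7.57-fold range. For ADRA1D the range was 2.00-fold, and for the other 3 genes it was 1.39-fold to 1.56-fold. The OPCML FPKM values were 0.142, 0.141 and 0.579 in IR_DMSO, 2.57, 2.06 and 4.60 in IR_RG7388 and 1.77, 1.22 and 1.10 in IR_HDM201, again without overlap.

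**Figure D4:**
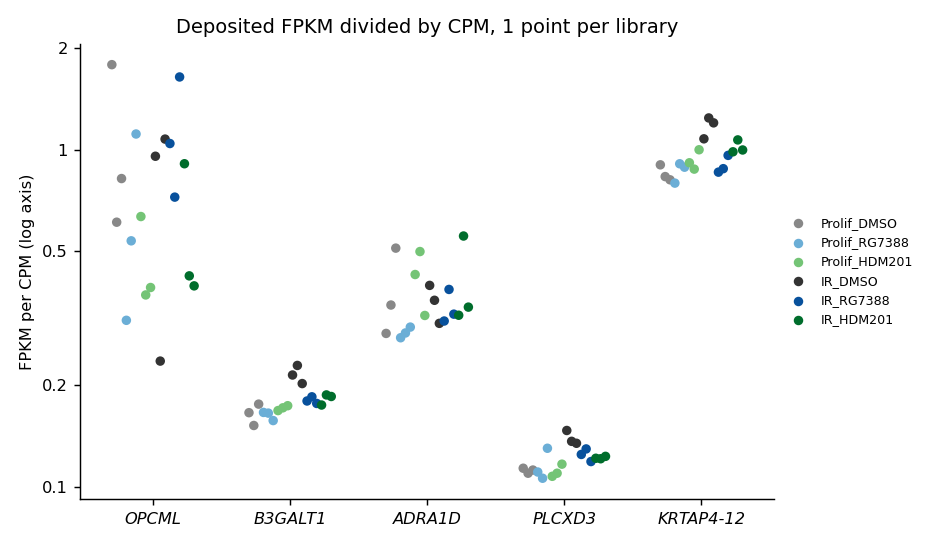
Deposited FPKM divided by TMM-scaled CPM (vertical log axis) for each of the 5 genes, with 1 point per library coloured by group. The OPCML points spread from 0.236 to 1.79, while those of B3GALT1, PLCXD3 and KRTAP4-12 stay within a 1.56-fold range.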

How the data were processed

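The authors aligned the reads to hg38 with STAR, counted reads per gene with HTSeq and computed FPKM with Cufflinks, with versions and the strand setting of the counter not given in the sources used here. The deposited table of counts was used as it stands, after 45 second copies of pseudoautosomal genes were left out, and the deposited FPKM values, with blank cells taken as 0, served as an alternative. No other sample columns were present. Genes were filtered by filterByExpr, scaled by TMM and fitted over all 18 libraries with edgeR 4.0.16 (glmQLFit and glmQLFTest, robust, 1 mean per group) in R 4.3.3, and p-values were adjusted by Benjamini-Hochberg over 18151 genes with a threshold of 0.05. The scripts were tested on simulated data. Alternatives were other scalings and filters, DESeq2 1.42.0, limma 3.58.1 on log2(FPKM + 1) or log2(FPKM + 0.1), a replicate block, the compared groups alone, an adjusted p under 0.01 and leaving out libraries. Totals of 21609198 to 66647700 counts set the precision, and counting error and the spread of 3 libraries limit the lowest values. The members and all gene lists were chosen with earlier results of these data known.

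Genes were named by rule: the 5 genes, the 3 ranked next with each compound, the 3 most similar patterns for each, up to 4 relatives per list with the smallest p with RG7388 in irradiated cells, and CDKN1A and MDM2. AC073050.1, the flanking genes, single marker genes, the family of KRTAP4-12 and values of a relative in other comparisons extend this rule. Values of a further relative are not reported here. Of 60623 gene IDs, 60295 matched GENCODE 44. Same-numbered libraries were checked for pairing and treated as unpaired (correlation over 0.1 in 10 of 45 pairs). Scripts compared 50-base words of GENCODE transcripts to find shared sequence.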

Additional observations from a re-analysis of the deposited data

Results flagged for a closer look

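In 2 genes the libraries moved in opposite directions in the proliferating and the irradiated state, with every library of the treated group on one side of its control. B3GALT1 had a log2 fold change of -0.60 in Prolif_RG7388 against Prolif_DMSO and of 2.51 in IR_RG7388 against IR_DMSO. ADRA1D had a log2 fold change of -0.69 in Prolif_HDM201 against Prolif_DMSO and of 2.11 in IR_HDM201 against IR_DMSO. With the other compound each gene overlapped its control in proliferating cells. Over all genes tested, 10.6% were lower in every library with RG7388 in proliferating cells and 6.66% with HDM201. In irradiated cells 21.7% and 17.1% were higher in every library. The difference between the states was not tested, because the irradiated libraries chose the genes, and neither value in proliferating cells passed the test.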

How the results depend on the processing

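KRTAP4-12 was higher in proliferating cells with each compound under all 18 alternatives, and it kept its call in 12 of them with RG7388 and in 10 with HDM201 (adjusted p from 0.00069 to 0.128 and from 0.000732 to 0.232). The number of the 5 genes called in proliferating cells went from 1 to 0 with RG7388 by limma on all 3 FPKM settings and at an adjusted p under 0.01, and with HDM201 by limma on log2(FPKM + 1) and log2(FPKM + 0.1), at an adjusted p under 0.01 and with the compared groups alone. It ranged from 0 to 1 with a library left out. Without both IR_DMSO replicate 1 and Prolif_HDM201 replicate 3 the KRTAP4-12 rises were 1.61 and 1.80 and both calls were kept.

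Of the genes without a call, OPCML changed sign on FPKM, to -0.0698 with RG7388 and -0.46 with HDM201 on log2(FPKM + 1), with and without the filter at 1 FPKM, and to -0.14 and -0.78 on log2(FPKM + 0.1). PLCXD3 with RG7388 ranged from -0.64 to 0.33 with a library left out (0.33 without Prolif_DMSO replicate 2 and 0.03 without Prolif_RG7388 replicate 1). B3GALT1 with HDM201 ranged from -0.46 to 0.0248 (the latter without Prolif_DMSO replicate 1). The cause was not tested. B3GALT1 and PLCXD3 had no value under the filter at 1 FPKM. PLCXD3 also had no value in proliferating cells with the compared groups alone or by DESeq2. In irradiated cells all 5 genes were higher than in IR_DMSO under every alternative that gave a value. Since the same libraries chose the genes, this is a description and not a test. The sizes fell on log2(FPKM + 1), where low values are compressed by the pseudocount. There OPCML was 1.63 with RG7388 and 0.89 with HDM201, B3GALT1 0.50 and 0.44, ADRA1D 0.66 and 0.72, PLCXD3 0.20 and 0.23, and KRTAP4-12 1.06 and 1.09.

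Relatives called with RG7388 in irradiated cells went from 18 to 8 on log2(FPKM + 0.1) and 11 with the FPKM filter. With HDM201 they went from 16 to 10, 7 and 9 on log2(FPKM + 1), log2(FPKM + 0.1) and with the filter, and to 9 at an adjusted p under 0.01. In proliferating cells with RG7388 the 4 calls became 2 without a filter on low counts, on all 3 FPKM settings and at an adjusted p under 0.01. They became 7 without both IR_DMSO replicate 1 and Prolif_HDM201 replicate 3. With a library left out they were 2 to 3 (2 without Prolif_DMSO replicate 1 or 2 or Prolif_RG7388 replicate 3). With HDM201 the 2 calls became 1 with the compared groups alone and 10 without both IR_DMSO replicate 1 and Prolif_HDM201 replicate 3. With a library left out they were 2 to 6 (6 without Prolif_HDM201 replicate 3). A replicate block changed no call of the 5 genes and gave 18, 17, 4 and 2 relatives called in these 4 comparisons, with KRTAP4-12 at 1.57 and 1.58, and the correlation of deviations was over 0.1 in 10 of 45 same-numbered pairs, while 10 of 18 libraries correlated best with one of their own number. Counts of 2 to 16 per library in proliferating cells limit what can be said of PLCXD3.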
